A study of Homo sapiens with 6 samples.

Results

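SMAD2/3 binding at 1.5 h of TGFβ3 was compared between Hs578T and BT549, which are established human triple-negative breast cancer cell lines. The peaks compared are the 1373 of the Hs578T list and the 9225 of the BT549 list, 10598 of the 20600 peaks in the 4 deposited lists. They were taken as whole lists, without selection by score. Both libraries came from chromatin of TGFβ3-treated cells, precipitated with an antibody that recognises SMAD2 and SMAD3. The lists of the same lines at 16 h of TGFβ3 serve here as a further readout. The dose of TGFβ3 is not given in the sources used here. Each line was grown in its own medium with serum and its own insulin supplement, so line and medium cannot be told apart. There is 1 library per line and time, so no difference between the lines was tested, and all differences are values of these libraries. Sequencing depth is unknown, and the number of peaks a library yields depends on it.

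TGFβ binds a pair of receptor kinases, which phosphorylate SMAD2 and SMAD3. These join SMAD4, enter the nucleus and bind DNA, largely where other transcription factors already hold the chromatin open, which is why their sites differ between cell types. SMAD3 and SMAD4 contact short elements such as CAGAC and its palindromic form GTCTAGAC, and also GC-rich motifs. Genes that dampen the pathway, among them SMAD7, SMAD6, SKIL and PMEPA1, are textbook direct targets.

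Positions are hg19, counted from 1. Each peak carries the score of the authors' peak caller, used here to rank peaks within 1 list. Rank 1 is the highest score, and tied peaks share a rank. A region is called shared when an Hs578T peak and a BT549 peak have at least 1 bp in common. Gene loci are the gene body with 50 kb to either side. Gene places on hg19 came from general knowledge of that map, not from an annotation file. Their chromosome was the RefSeq one for 124 of 124 listed loci, and their order along the chromosome was the RefSeq order for 102 of 102 neighbouring pairs.

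The promoters of 4 genes are shown to let the start of genes with a shared peak be read beside the values. They were chosen, after the values were seen, from the 8 genes with a shared peak within 1 kb of the start at 1.5 h. Each run is the 250 bases upstream of the start on the plus strand of GRCh38.p14, taken from RefSeq by gene symbol. These places cannot be read against the hg19 peak positions. Capitals mark matches on either strand to the SMAD element CAGAC, to its palindrome GTCTAGAC, to the GC-rich SMAD motif GGCGCC and to the AP-1 element TGANTCA. The palindrome contains neither CAGAC nor GTCTG.
SMAD6, chr15:66701986-66702235: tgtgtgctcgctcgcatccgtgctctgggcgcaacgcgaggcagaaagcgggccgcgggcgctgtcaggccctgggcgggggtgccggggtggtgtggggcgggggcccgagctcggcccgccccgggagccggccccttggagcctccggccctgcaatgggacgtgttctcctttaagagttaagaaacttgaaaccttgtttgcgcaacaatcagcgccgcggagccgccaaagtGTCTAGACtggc
SKIL, chr3:170357465-170357714: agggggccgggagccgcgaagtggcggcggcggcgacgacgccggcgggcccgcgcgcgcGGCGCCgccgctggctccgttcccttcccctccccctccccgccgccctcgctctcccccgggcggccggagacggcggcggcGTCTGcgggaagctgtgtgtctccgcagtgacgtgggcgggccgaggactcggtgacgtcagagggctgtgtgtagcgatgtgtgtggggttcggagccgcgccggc
BHLHE40, chr3:4979187-4979436: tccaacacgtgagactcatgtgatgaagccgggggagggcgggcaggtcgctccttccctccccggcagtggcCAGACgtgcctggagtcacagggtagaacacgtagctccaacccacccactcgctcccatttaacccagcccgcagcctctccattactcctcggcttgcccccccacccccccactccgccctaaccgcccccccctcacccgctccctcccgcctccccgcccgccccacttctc
DDIT4, chr10:72273674-72273923: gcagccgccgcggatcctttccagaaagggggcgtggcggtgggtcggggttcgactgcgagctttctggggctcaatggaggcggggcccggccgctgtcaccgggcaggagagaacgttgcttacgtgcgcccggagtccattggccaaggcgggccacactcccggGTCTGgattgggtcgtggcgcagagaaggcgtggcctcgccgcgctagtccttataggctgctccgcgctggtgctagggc

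The SMAD6 promoter holds the palindrome GTCTAGAC close to the gene start. This element was present in 64 of 35116 RefSeq promoters of the same length, or 0.182%. The SKIL, BHLHE40 and DDIT4 promoters each hold 1 match to CAGAC, which 38% of all promoters contain, and SKIL also holds GGCGCC, present in 16.4%. TGANTCA was in none of the 4 runs and in 6.57% of promoters. Of the other 4 genes with a shared peak at the start, PLAUR has a promoter with 1 match to CAGAC, 1 to the GC-rich motif and 1 to the AP-1 element. The ID1 promoter holds none of the marked motifs, and ZNF503 and PMEPA1 have several promoters, of which 1 each holds none. A match describes the letters in the window and is not a measured binding site.

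Most SMAD2/3 peaks of either line lacked an overlapping peak of the other, and the share with an overlap was higher among the highest-scoring peaks. Of the Hs578T peaks 154 overlapped a BT549 peak, or 11.2% (9.65 to 13, 95% Wilson interval, which covers counting error only, here and below). Of the BT549 peaks 147 did so, or 1.59% (1.36 to 1.87). In Hs578T the overlapping share was 40% (27.6 to 53.8) for ranks 1 to 50, 22% (12.8 to 35.2) for ranks 51 to 100 and 26% (18.4 to 35.4) for ranks 101 to 200. It was 12.3% (9.08 to 16.5) for ranks 201 to 500 and 6.29% (4.02 to 9.73) from rank 1001 on. In BT549 it was 16% (8.34 to 28.5) for ranks 1 to 50, where 3 of the 8 overlapping peaks lay near a gap edge, here 1 Mb or less from either end of the longest peak-free stretch of a chromosome. Without gap-edge peaks, a choice made after seeing the data, it was 10.6% (4.63 to 22.6) for BT549 and 37.5% for Hs578T. Further down the BT549 list it was 5% (3.05 to 8.08) for ranks 201 to 500 and 1.33% (0.795 to 2.22) for ranks 1001 to 2000, below which it stayed between 1.05% and 1.58%. Most of the overlap nevertheless lay lower in the lists, since 40 of 154 shared Hs578T peaks and 40 of 147 shared BT549 peaks were in the upper 10% of their list. With the BT549 list shortened to its 1373 highest-scoring peaks, the Hs578T share fell from 11.2% to 3.71%, or 51 peaks. The BT549 share rose from 1.59% to 3.35%, or 46 peaks. That the shares then lie close together follows from the equal list lengths and is no result.

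**Figure D1:**
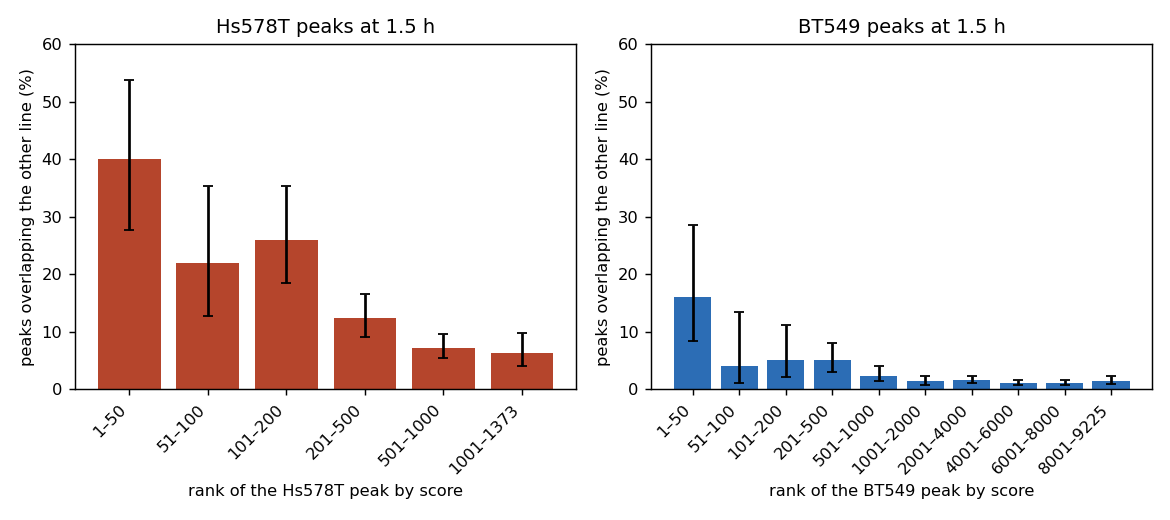
Share of 1.5 h peaks (y axis, %) that overlap a peak of the other line, by rank class of the peak in its own list (x axis), for Hs578T (left) and BT549 (right); bars are the shares and lines the 95% Wilson intervals. The share is highest for ranks 1 to 50 in both lines, 40% in Hs578T and 16% in BT549, or 37.5% and 10.6% without gap-edge peaks.

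The shared peaks formed 144 separate regions, 132 of them with 1 peak of each line. The centres of the leading peaks of both lines lay a median of 58 bp apart (quartiles 20.25 and 113). Spearman's rho between the ranks was 0.18 over the 144 regions, and Pearson's r between the log10 scores was 0.27, as descriptions of regions that share their 2 libraries. Only 4 regions ranked within the first 100 of both lists, and 21 within the first 500. Near a gap edge lay 9 of the 144 regions, and without these rho was 0.15 and the counts were 2 and 17. With equal list lengths rho was -0.0041 and with 50% of both peaks overlapping 0.52, so the value depended on how shared regions were defined.

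**Figure D2:**
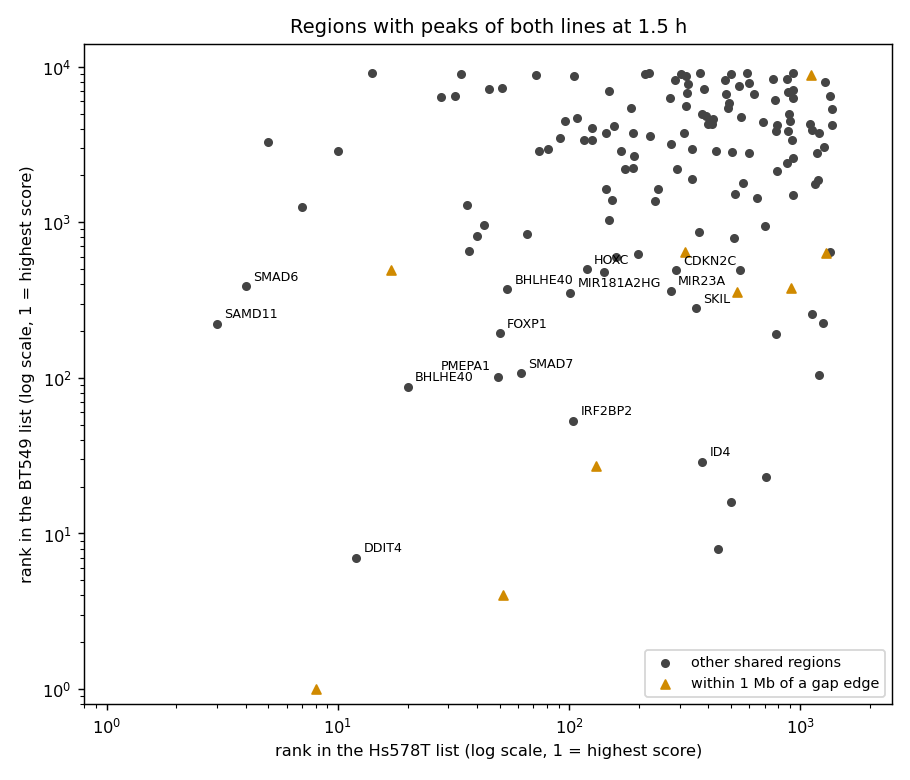
Rank of each of the 144 shared regions in the Hs578T list (x axis, log scale) against its rank in the BT549 list (y axis, log scale); triangles mark regions near a gap edge, and names mark listed loci among the leading 21 regions. Only 4 points lie within rank 100 on both axes, 2 of them gap-edge regions, while SMAD6 and SAMD11 rank 4 and 3 in Hs578T but 387 and 223 in BT549.

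The 10 leading shared regions, ordered by the worse of their ranks, included 3 gap-edge regions and 7 others, all 7 of them in loci that could be named. The DDIT4 locus, which encodes a stress-induced inhibitor of mTORC1, held the region with the best ranks outside the gap edges, on chromosome 10 from 74078964 to 74079748, which lies in the DNAJB12 locus as well. It scored 360.2 in Hs578T and 1434 in BT549, ranking 12 and 7. BHLHE40, a basic helix-loop-helix repressor, followed with a region on chromosome 3 from 5019964 to 5021065 that ranked 20 and 88. PMEPA1, a membrane protein that withholds SMADs from the receptor, ranked 49 and 101 at chromosome 20 from 56284876 to 56285732. In all 3 loci the region was listed again at 16 h in both lines.

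The IRF2BP2 region, at a transcriptional corepressor gene, ranked 104 in Hs578T and 53 in BT549, on chromosome 1 from 234748127 to 234749051. The SMAD7 region, at the gene for the main inhibitory SMAD, lay on chromosome 18 from 46478267 to 46478894 and ranked 62 and 107. A region in the FOXP1 gene, which encodes a forkhead factor, ranked 50 and 194, on chromosome 3 from 71560142 to 71560662. The region in SAMD11, on chromosome 1 from 876767 to 877439, was the third in Hs578T with a score of 678.3 and ranked 223 in BT549 with 456.9. These 4 regions were listed at 16 h in both lines as well. The 3 gap-edge regions, on chromosomes 1, 6 and 7, were listed at 16 h in BT549 only.

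At the DDIT4 locus 5 of the 6 Hs578T peaks overlapped BT549 peaks, but the lines ranked the sites differently. The Hs578T peak from 74020295 to 74021244 scored 656.3 and ranked 5, and the BT549 peaks inside it scored 57.5 and 113.6, ranking 8581 and 3305. The Hs578T peak from 74032332 to 74032881, within 1 kb of the gene start, ranked 7 and its BT549 counterpart 1245. BT549 also had peaks from 74056924 to 74057342 (rank 340) and from 74068192 to 74068753 (rank 1555) where Hs578T had none. All 3 Hs578T peaks at BHLHE40 overlapped BT549 peaks, while BT549 had 10 peaks in that locus.

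Of the 10 highest-scoring Hs578T peaks without a BT549 overlap, 6 lay in loci of the HOX and developmental lists. The HOXA cluster, whose genes set position along the body axis, held 3 of the 10 leading Hs578T peaks without a BT549 overlap. They started at 27219611 on chromosome 7 (score 782.5, rank 1), 27227222 (rank 11) and 27209692 (rank 15). The others in named loci were PRDM16, a zinc finger regulator of cell fate, at chromosome 1 from 3309775 (rank 2), ZNF503, a zinc finger corepressor, at chromosome 10 from 77164631 (rank 6), and HOXD at chromosome 2 from 176968692 (rank 9). TSC22D3, a glucocorticoid-induced leucine zipper gene, had 2 such peaks on chromosome X, from 106980012 (rank 13) and from 106919868 (rank 19). A SAMD11 peak from 871169 ranked 18, in a locus that also held shared regions. Among these, the region from 856309 to 856802 ranked 10 in Hs578T and 2876 in BT549. A peak on chromosome 8 from 37404437 to 37405105 ranked 16 and lay in no listed locus. All 10 were listed at 16 h in Hs578T and none of them at 16 h in BT549.

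The 10 leading BT549 peaks without an Hs578T overlap were led by one in the COL1A1 locus, which encodes a chain of type I collagen, next to SGCA on chromosome 17 from 48255253 to 48256168. It scored 2234 and ranked 2, and at 16 h it had an Hs578T counterpart with a score of 57.05 and rank 1190. SLC25A37, a mitochondrial iron importer, followed at chromosome 8 from 23398269 to 23399726 with rank 3. Next came the loci of CWC27 (rank 5), the MIR23A microRNA cluster (rank 6, on chromosome 19 from 13961887 to 13962690) and AZIN1 (rank 9). The MIR23A locus also held a shared region, from 13958352 to 13958875, which ranked 275 in Hs578T and 363 in BT549. NFATC2, a calcium-regulated transcription factor, CLU, a secreted chaperone, and LTBP2, a matrix protein of the latent TGFβ binding family, ranked 12, 13 and 14. The peaks of ranks 10 and 11, on chromosome 20 from 56592250 and chromosome 10 from 47057276, lay in no listed locus. All 10 were listed at 16 h in BT549, and the COL1A1 peak alone of the 10 at 16 h in Hs578T.

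Peaks of both lines fell in 29 of 124 listed gene loci, windows far wider than a peak, in which meeting is easier than overlap. The list was drawn up with earlier results of these data known. Hs578T had a peak in 33 of them, or 26.6%, beside 4.72% of 24199 genome tiles of 126 kb, the median span of a locus. BT549 had one in 91 loci, or 73.4%, beside 22% of tiles. The tiles also cover stretches with few genes. Peaks of both lines were found in 29 loci, or 23.4%, beside 1.7% of tiles. Of the 33 Hs578T loci 87.9% also held a BT549 peak, and of the 1142 tiles with an Hs578T peak 36.0% did. The counts per gene list given further on stand beside these shares of all listed loci, 26.6% for Hs578T and 73.4% for BT549, with BT549 alone in 62 of 124 loci, and a count near them is no result about its list. In 19 of the 29 loci peaks of both lines overlapped, and in the other 10 they lay apart. With the lists cut to 1373 peaks each, 18 loci had peaks of both lines, 15 of Hs578T alone and 23 of BT549 alone, against 29, 4 and 62 with the whole lists.

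**Figure D3:**
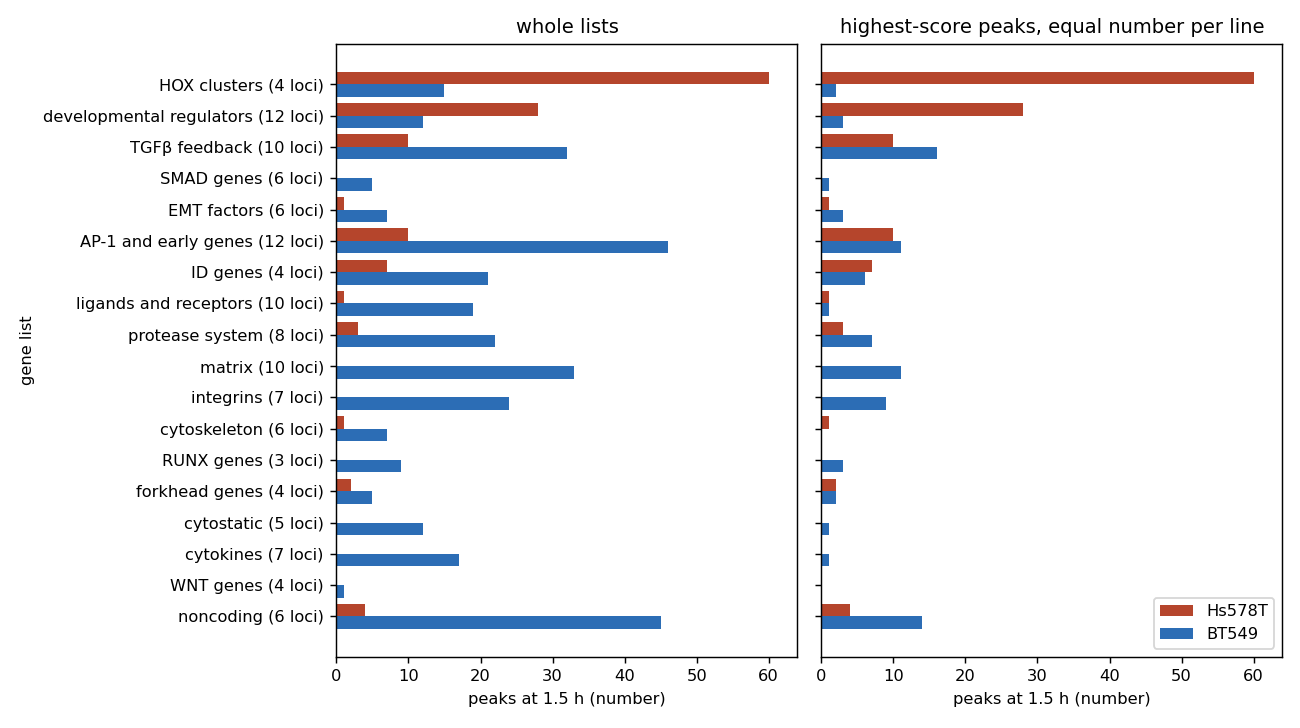
Number of 1.5 h peaks (x axis) in the loci of each gene list (y axis), for Hs578T (red) and BT549 (blue), from the whole lists (left) and from the 1373 highest-scoring peaks of each line (right). HOX clusters and developmental regulators hold more Hs578T peaks in both panels, and the matrix and integrin lists hold BT549 peaks alone.

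Of 10 loci of TGFβ feedback genes 4 had an Hs578T peak and 9 a BT549 peak, beside 26.6% and 73.4% of all listed loci. Of these loci 4 had peaks of both lines, 5 of BT549 alone, and 1 of neither, with 10 Hs578T and 32 BT549 peaks in all. In each of the 4 common loci, SMAD7, SMAD6, SKIL and PMEPA1, peaks of the lines overlapped. The SMAD6 peak on chromosome 15 from 66994380 to 66994846 was the fourth of Hs578T with a score of 658.3, while its BT549 counterpart scored 356.4 and ranked 387. SMAD6 encodes an inhibitory SMAD that acts mainly on BMP signals. At SKIL, which encodes the SMAD corepressor SnoN, the scores were 70.9 and 410.2 and the ranks 353 and 280. At SMAD7, BT549 had 10 peaks and Hs578T 3.

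Feedback loci with BT549 peaks only were SKI, SMURF2, LDLRAD4, TGIF1 and BAMBI. The SKI gene, which encodes a SMAD corepressor, held a BT549 peak of score 693.6 and rank 80, on chromosome 1 from 2165543 to 2166307. The best peak of SMURF2, a ubiquitin ligase of the pathway, ranked 273. At 16 h Hs578T had peaks in 6 of the 10 loci and BT549 in 9. In the list of the other SMAD genes BT549 had peaks at SMAD2 and SMAD3 and Hs578T had none in 6 loci.

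The ID genes encode helix-loop-helix proteins that block differentiation factors and respond to both BMP and TGFβ. Hs578T peaks were found in 4 of 4 loci and BT549 peaks in 3, ID1, ID3 and ID4, each with an overlap. The ID4 region on chromosome 6 from 19804880 to 19805516 ranked 29 in BT549 with a score of 1000.2 and 376 in Hs578T with 69.8. ID2 had 2 Hs578T peaks, of scores 71.2 and 62.0, and no BT549 peak at 1.5 h, though BT549 had 1 in the locus at 16 h. ID1 held 2 shared regions, near the gap edge of chromosome 20. The region from 30191835 ranked 317 in Hs578T and 645 in BT549, and that from 30196229 ranked 1293 and 633.

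HOX clusters were the loci in which Hs578T had the most peaks. It had 60 in the 4 clusters, and BT549 had 15 from the longer list. HOXA held 23 Hs578T and 2 BT549 peaks, none overlapping, and the best BT549 peak there scored 268.1 and ranked 670. HOXB held 14 and 8 peaks, HOXC 14 and 5, and HOXD 9 and 0. Overlaps occurred in HOXB, on chromosome 17 from 46621878 to 46622303, and in HOXC, where the region from 54411667 to 54412095 on chromosome 12 ranked 119 and 500. At 16 h the clusters held 68 Hs578T and 18 BT549 peaks. Some of these peaks are closely spaced calls and do not count as separate sites.

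Among 12 other developmental regulators 7 loci had peaks of both lines, with 28 Hs578T and 12 BT549 peaks, and overlaps in 3 loci, ZNF503 and TBX3 among them. At the start of ZNF503 the overlapping Hs578T peaks ranked 34 and 51, and their BT549 counterparts 8957 and 7299. The centres of these pairs lay 193.5 and 293 bp apart. The PRDM16 locus held 8 Hs578T and 2 BT549 peaks, none overlapping, and the better BT549 peak, from 3229444 to 3230078, ranked 86 with a score of 671.1. At ZNF703, a breast cancer corepressor gene, Hs578T had 5 peaks and BT549 1, which did not overlap.

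**Figure D4:**
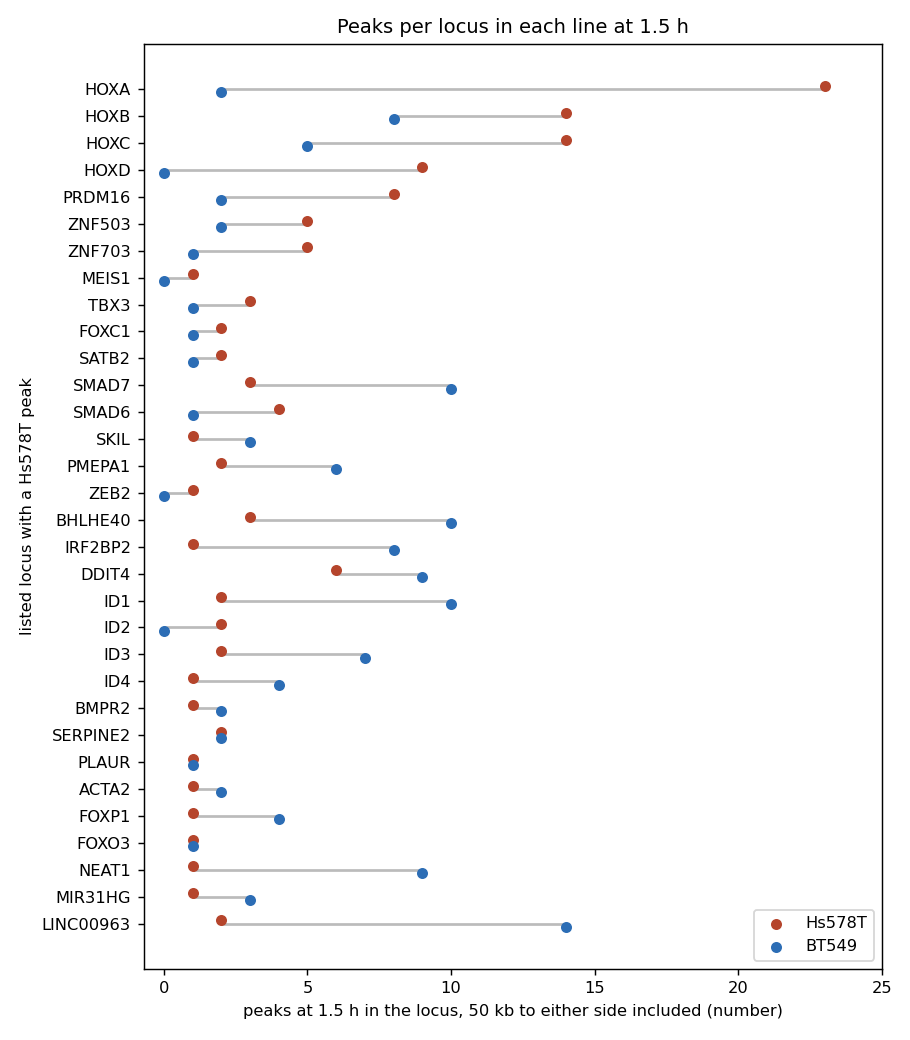
Number of 1.5 h peaks (x axis) in the listed loci with an Hs578T peak (y axis, 1 locus not shown), with 50 kb to either side, for Hs578T (red) and BT549 (blue); grey lines join the lines of a locus. HOXA shows 23 against 2 peaks, while SMAD7, BHLHE40, ID1 and LINC00963 hold 10 to 14 BT549 peaks and 2 or 3 Hs578T peaks.

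All 10 matrix loci had a BT549 peak, 33 in all, and none had an Hs578T peak at 1.5 h, beside 73.4% and 26.6% of all listed loci. The integrin, SMAD, RUNX, cytostatic, cytokine and WNT lists also had no Hs578T peak. Beside COL1A1 the highest scores were at TGFBI, a TGFβ-induced matrix protein, with 885.2 and rank 37 among 8 peaks, and at COL5A1 with 549.4. CCN1 and CCN2, secreted matricellular proteins, held 8 and 5 BT549 peaks. FN1, the fibronectin gene, had a single weak one of score 72.0. At 16 h Hs578T had a peak in 1 of the 10 loci, COL1A1. With 1373 peaks per line, BT549 kept peaks in 5 of the 10.

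Integrin genes encode the receptors for that matrix, and 6 of 7 loci had BT549 peaks, 24 in all, with no Hs578T peak at either time. ITGB1, the common beta chain, had the highest, on chromosome 10 from 33269265 to 33270147, scoring 1108 at rank 18. ITGB5 and ITGB6 followed with best scores of 539.7 and 534.1. In the protease list, PLAU, the urokinase gene, held 8 BT549 peaks with a best score of 430.7, and Hs578T had none. The urokinase receptor gene PLAUR had a weak overlap, scoring 56.4 in the Hs578T list and 58.1 in that of BT549. The Hs578T peak ended at 44174347 and the BT549 peak began at 44174338, so they met at their edges only. Their centres lay 154.5 bp apart. Of 8 protease loci 2 had Hs578T peaks and 6 had BT549 peaks.

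Among AP-1 and early genes BT549 had peaks in 10 of 12 loci and Hs578T in 3, namely BHLHE40, IRF2BP2 and DDIT4, all with overlaps, which is near the 73.4% and 26.6% of all listed loci. JUN, JUNB, JUND, FOSB, FOSL1 and FOSL2, which encode AP-1 subunits, had BT549 peaks only, with best scores between 83.5 at FOSL2 and 254.9 at FOSB. The EMT factors, which repress epithelial genes, had BT549 peaks at SNAI1, ZEB1, TWIST1 and TWIST2 and a single Hs578T peak of score 54.7 at ZEB2. The best SNAI1 peak scored 419.6. Ligand and receptor genes had BT549 peaks in 7 of 10 loci and an Hs578T peak in 1, BMPR2, and the BT549 share is again near 73.4%. TGFBR2, the type II receptor, held 6 BT549 peaks.

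Loci of cytostatic and cytokine genes had no Hs578T peak at 1.5 h. BT549 peaks were found in 4 of 5 cytostatic loci, led by CDKN1A, the p21 gene, with a score of 323.1, and in 5 of 7 cytokine loci, led by ANGPTL4 with 266.9, both near the 73.4% of all listed loci. LIF held 9 BT549 peaks. RUNX1 had 7 and RUNX2 had 2. Forkhead loci had peaks of both lines at FOXP1 and FOXO3, overlapping at FOXP1 only. Cytoskeleton loci had 3 with BT549 peaks and 1, ACTA2, with an Hs578T peak, which had no overlap. Of 4 WNT loci WNT5B alone had a peak, in BT549.

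The noncoding list had BT549 peaks in 6 of 6 loci and Hs578T peaks in 3. LINC00963 held 14 BT549 and 2 Hs578T peaks. Both Hs578T peaks overlapped BT549 peaks. The Hs578T peak from 132262562 on chromosome 9 ranked 40 with a score of 219.2, and its BT549 counterpart ranked 812. The region from 132250812 to 132251345 ranked 713 in Hs578T and 23 in BT549. NEAT1 and MALAT1 are neighbours and can count the same peak. Of the 89 genes whose start could be checked, 10 had an Hs578T peak within 1 kb of it and 30 a BT549 peak. A shared peak was found there for 8. Those 8 were ZNF503, SMAD6, SKIL, PMEPA1, BHLHE40, DDIT4, ID1 and PLAUR, the last by peaks that met at their edges only. No share of other gene starts stands beside these counts, and the tile shares are for far wider windows. The counts are therefore no result about promoters.

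The 16 h lists gave a readout that did not define the shared class. At 1.5 h the shared Hs578T peaks were listed again at 16 h in Hs578T in 56.5% of cases (48.6 to 64.1), beside 27.8% of all Hs578T peaks and 24.2% (21.9 to 26.7) of those without a BT549 overlap. Shared BT549 peaks were listed again at 16 h in BT549 in 66.7% (58.7 to 73.8), beside 41.4% of all and 41.0% (40.0 to 42.0) of those without an Hs578T overlap. Nearly all strong peaks recurred in either class. Within the first 100 ranks of Hs578T, 29 of 31 shared and 69 of 69 unshared peaks were listed at 16 h, and in BT549 10 of 10 and 90 of 90 were. Beyond rank 100 the shares were 47.2% (38.6 to 55.9) against 19.7% (17.5 to 22) in Hs578T, and 64.2% (55.9 to 71.8) against 40.4% (39.4 to 41.4) in BT549. With every list, those of 16 h included, cut to scores of 100 or more, the order turned in Hs578T. There 63.9% of shared and 82.2% of unshared peaks were listed again, and in BT549 73.5% and 41.8% were. A peak then counted as shared, or as listed again, only if its partner also scored 100 or more. These shares therefore rest on other definitions than those of the whole lists. Shared peaks also ranked higher, with a median rank of 346.5 against 726 in Hs578T and 3205 against 4611 in BT549, and the part of rank in these differences was not tested.

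**Figure D5:**
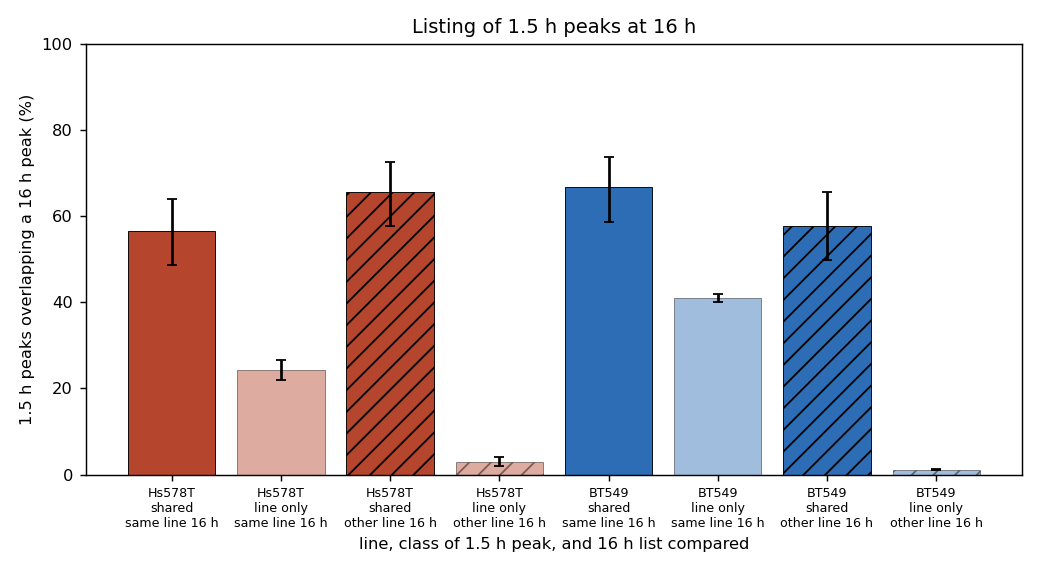
Share of 1.5 h peaks that overlap a 16 h peak (y axis, %), by line, by whether the peak is shared between the lines at 1.5 h, and by whether the 16 h list is of the same line (plain) or the other line (hatched); bars are shares and lines 95% Wilson intervals. Shared peaks stand at 56.5% and 66.7% in their own line, peaks without overlap at 24.2% and 41.0%.

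Peaks that one line lacked at 1.5 h were also looked up in its 16 h list. Of the Hs578T peaks without a BT549 overlap, 35 of 1219 overlapped a BT549 peak at 16 h, or 2.87% (2.07 to 3.97), beside 9.91% of all Hs578T peaks. Of the BT549 peaks without an Hs578T overlap, 104 of 9078 overlapped an Hs578T peak at 16 h. This was 1.15% (0.946 to 1.39), beside 2.05% of all BT549 peaks. For shared peaks the share listed at 16 h in the other line was 65.6% in Hs578T and 57.8% in BT549. The unshared peaks were chosen for lacking a partner at 1.5 h, and part of each list recurs at 16 h. A share below that of all peaks is thus built into the choice and is no separate result. Among the listed loci, 44 of the 62 with BT549 peaks alone at 1.5 h were again of that kind at 16 h, 7 had peaks of both lines, 1 of Hs578T alone and 10 of neither. Of the 29 loci with both, 22 had both at 16 h, 2 had Hs578T peaks alone, 4 BT549 peaks alone and 1 neither. Of the 29 loci with neither at 1.5 h, 21 again had neither. In that class 6 loci had BT549 peaks alone at 16 h, 1 had Hs578T peaks alone and 1 had both. Of the 144 shared regions, 62 were listed at 16 h in both lines, 25 in Hs578T only, 34 in BT549 only and 23 in neither. These region counts have no comparison class and are a description only.

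Distances between the lists depend on how many peaks each holds and are given as a description. The nearest BT549 peak lay a median of 132 kb from an Hs578T peak without overlap, and it was within 500 bp for 27 of 1219 peaks (2.21%) and within 50 kb for 345 (28.3%). For BT549 peaks without overlap the median distance to an Hs578T peak was 846 kb. Shared peaks were wider than unshared ones, with a median of 166 bp against 140 bp in Hs578T and 287 bp against 238 bp in BT549. Peaks under 150 bp made up 37.7% of the shared and 67.6% of the unshared Hs578T peaks, and 15.6% and 12.2% in BT549.

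The lines also spread their peaks differently over the chromosomes. Chromosome 20 held 2.99% of the BT549 and 1.02% of the Hs578T peaks, chromosome 8 held 8.04% and 3.93%, and chromosome 9 held 5.79% and 3.20%. The order was the opposite on chromosome X, with 2.35% of the BT549 and 6.12% of the Hs578T peaks, and on chromosome 15, with 1.75% and 3.42%. Shared regions were most numerous on chromosome 1, with 23, chromosome 10, with 15, and chromosome 3, with 14. Chromosome 1 also held the most peaks of either list, 178 of Hs578T and 929 of BT549. Chromosome 10 held 92 and 512 peaks, and chromosome 3 held 77 and 607. Whether the counts of shared regions exceed what these peak numbers would give was not tested, so they are a description only.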

How the data were processed

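SMAD2/3 ChIP-seq peak lists of Hs578T and BT549 were read as deposited, 1 list per library. The submitters' processing notes name the aligner Bowtie (1.1.0), the peak caller MACS (1.4.2), Picard and the hg19 build, without settings. The authors deposited a score per peak; the lowest scores, near 50, would fit 10 times the negative log10 of a p-value. A score depends on depth, which is unknown. Input DNA, 1 sample per line, was not analysed here.

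Overlaps, ranks, shares and Wilson intervals were computed in Python 3.11.15 with scipy 1.17.1, numpy 2.4.6 and pandas 2.3.3; matplotlib 3.10.9 drew the plots. Simulated peak lists with known overlaps were used to test the code. The regions named are the 10 leading shared regions and the 10 leading peaks without overlap in each line; the genes named are the listed loci with a peak. The loci and members were chosen with earlier results of these data known, and 23 further loci, used to name leading peaks only, were chosen after seeing them. Gene spans on hg19 came from general knowledge and were within 25 kb of the RefSeq (GRCh38.p14) span for 118 of 120 single genes, the exceptions being ZNF503 and MIR100HG. No hg19 sequence was used, so motifs in peaks were not computed. No test between lines was possible with 1 library each. Some loci of the lists are counted but not reported here by name.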

Additional observations from a re-analysis of the deposited data

How the results depend on the processing

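Alternatives were a score of at least 100, 50% of both peaks overlapping, peaks within 500 bp, equal list lengths, chromosomes 1 to 22 with X, peaks of at least 150 bp, and no gap edges. The share of Hs578T peaks overlapping BT549 became 21.8%, 5.32%, 13.2% and 3.71% under the first 4 and 18.9% with wide peaks, and that of BT549 peaks 0.879%, 0.791%, 2.14%, 3.35% and 1.11%. With 50% of both peaks, 16% of the leading 100 Hs578T and 5% of the leading 100 BT549 peaks overlapped. Listing at 16 h in the same line came to 42.5% (50% of both peaks) and 65.6% (wide peaks) for shared Hs578T peaks. It came to 82.2% (score), 14.8% and 52.3% for unshared Hs578T peaks, and to 32.3% and 43.9% for unshared BT549 peaks. The score limit was applied to every list, those of 16 h included, so partners also had to score at least 100. Under it the order of shared (63.9%) and unshared Hs578T peaks turned. Listing in the other line came to 1.92% and 4.77% for Hs578T and to 0.626%, 0.688% and 0.862% for BT549. Spearman's correlation between ranks over shared regions was -0.0041 with equal lists and 0.52 with 50% of both peaks. Loci with both lines numbered 17 at a score of at least 100; with equal lists, chosen after seeing the data, they were 18, with 15 of Hs578T alone and 23 of BT549 alone. The cause of these shifts was not tested. The motif alternative was not run, as no hg19 sequence was used. No paired analysis was possible because each line and time has 1 library. Depth, unknown here, limits every count.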
